A study of Mus musculus with 16 samples.

Results

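The regions described here are first introns of middle length: for each gene with at least 3 introns, the intron nearest the 5′ end, where it was over 1000 and under 50000 bp long and had a mean of at least 10 counts over the libraries. There were 3583 such introns among the 200168 rows of the intron table. Of the 16921 first introns of genes with at least 3 introns, 10879 had that length, and 32.9% of these reached a mean of 10 counts, while 26033 of all introns did. The members were thus selected on length and on mean count, so neither is a finding. Just inside the limits lay Nes (1003 bp), Desi2 (49954 bp) and Acad9 (10.0 counts), and just outside Eif4g1 (991 bp), Aopep (50006 bp) and Zfp651 (9.94 counts). The median member was 10490 bp long (1003 to 49954 bp) and lay in a gene with 11 introns (3 to 115). Each first intron was compared with the last intron of the same gene, the one nearest the 3′ end.

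RNA was taken from mHiPPoE-2, a transformed hippocampal neuron line of the mouse strain Crl:CFW(SW)-024, as total RNA depleted of ribosomal RNA, so unspliced transcripts were sequenced along with mature ones. The 8 groups of 2 libraries were unedited cells (WT), 1 clonal isolate in which Cas9 had disrupted METTL3 (METTL3 KO), 2 Cas9 control clones that received no guide RNA, 2 clones edited in Rbm45 (RBM45 KO), and 2 clones (KO rescue) that lack RBM45 but carry an F-HA-tagged copy with an altered guide site. All edited groups are single clones grown from cells exposed to Cas9, and no group received a treatment. METTL3 KO is 1 clone, so the edit and the clone cannot be told apart there. Nothing in the labels says that replicate libraries came from separate cultures, so a p-value reflects only how far these libraries lie apart.

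RNA polymerase II makes the first intron of a gene before the others, and the spliceosome removes it while transcription is still under way or soon after. Reads inside introns therefore come mostly from unfinished or not yet spliced RNA, and in a long gene the first intron can hold RNA from polymerases that never reach the last one. METTL3 is the catalytic subunit of the complex that writes N6-methyladenosine into RNA, and RBM45 is an RNA-binding protein of neural tissue.

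The members' own splice sites are shown first, because they lie at ends of the regions counted. In 433 members (12.1%) the next intron row begins at the following base, with no exon base between. Those rows may be parts of an intron. In GRCm38 (mm10), the build of the files, 30 bases could be read at 408 donor sites and 370 acceptor sites of 3472 members on the chromosomes searched, those covered by a GENCODE transcript that runs through the boundary. At a donor site the 30 bases are the last 9 of the exon and the first 21 of the intron, with the first 2 intron bases in capitals. Of the donors read, 401 began with GT and 6 with GC. The 5 bases GTGAG opened 187 of them (45.8%) and GTAAG opened 73 (17.9%). The 5 donors below belong to members whose counts or ratios are described further on.
Peak1 donor, chr9:56417920-56417949, minus strand: tcccctcagGTaacgggggcagggttgccc
Hnrnpa2b1 donor, chr6:51469650-51469679, minus strand: gcgatggagGTaacgggtttgaaatcaatg
Map2 donor, chr1:66175487-66175516, plus strand: cgcgcccagGTaagacatcgtcccgcctag
Nup210 donor, chr6:91116597-91116626, minus strand: ctaccgctgGTgaggcgcgcgggcccggcg
Taf1d donor, chr9:15306275-15306304, plus strand: gcggaagagGTaagcggttgttcactgtgg

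At an acceptor site the 30 bases are the last 24 of the intron and the first 6 of the exon, with the last 2 intron bases in capitals. Of the acceptors read, 353 ended with AG. The 4 acceptors below close first introns that are described further on.
Srrm2 acceptor, chr17:23808042-23808071, plus strand: accttgaagggatttatccttcAGgtacga
Hnrnpa2b1 acceptor, chr6:51467290-51467319, minus strand: ttgaaatggtatttccctttgcAGagagaa
Cdk8 acceptor, chr5:146259481-146259510, plus strand: attaaaataactttgtttttacAGgaagga
Synj2 acceptor, chr17:5975771-5975800, plus strand: tctctgatgtgttttcccccccAGctccgg

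Promoters of the members' genes were rich in CpG. RefSeq promoters of GRCm38.p6, from 250 bases before to 50 after the start, were matched for 2864 members. Their median GC content was 64.0%, against 52.7% over all 27025 promoters of the table. The ratio of observed to expected CpG was at least 0.6 in 83.1% of them and in 36.5% of all. The letters TATAAA stood on either strand in 5.34% of the members' promoters and in 14.2% of all promoters. Members were kept for having counts and most promoters of the table belong to genes without that filter, so these shares describe the set.

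Intron-table totals were 1945130 to 4251417 counts per library, and the members held 4.21% to 7.80% of them. Ribosomal repeats filled much of each library: 3 such rows of the gene table held 35.9% to 40.6% of gene counts in KO rescue and 36.3% to 38.8% in METTL3 KO, against 44.0% to 44.4% for WT, 45.6% to 47.8% for RBM45 KO and 40.3% to 47.0% for the controls. Rbm45 stood at 5.09 to 8.03 CPM in RBM45 KO, at 22.9 to 31.8 with the rescue copy, and at 10.3 to 18.4 among the control libraries. Mettl3 stood at 4.47 and 4.59 CPM in METTL3 KO and at 8.56 and 9.90 in WT. The first introns of Rbm45 (a mean of 3.13 counts) and Mettl3 (9.19) fell below the count limit. Of 10 neuron markers 3 averaged at least 1 CPM, and Rbfox3, Nefl, Snap25, Stmn2 and Dcx stayed under 0.1 CPM. The 7 mesenchymal markers found all passed 1 CPM, with a summed level of 1079 to 2802 CPM. In bulk RNA, fewer cells of a kind and less RNA per cell cannot be told apart.

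Where the clones of RBM45 KO differed from each other in a member, the KO rescue clones mostly stood with clone 2. Of the members, 126 (3.52%) differed in count between the RBM45 KO clones, beside 4.16% of all introns (edgeR). The control clones differed in more, 218 (6.08%, beside 6.46% of all introns), so such a split is not particular to RBM45 KO or to the members. For 110 of these 126 (87.3%) the first KO rescue clone lay on the side of RBM45 KO clone 2 of the midpoint between the KO clones, and for 116 (92.1%) the second one did. The control clones lay on that side for 16 (12.7%) and 52 (41.3%), WT for 63 and METTL3 KO for 59 (46.8%). Over all 1083 introns that differed between the KO clones, the KO rescue clones lay there for 900 (83.1%) and 890 (82.2%). The contrast that picked the 126 was between the KO clones, but its spread came from all 16 libraries. Members also needed a mean of at least 10 counts over all 16 libraries. An intron high in KO rescue could thus pass that limit through KO rescue itself. These shares describe the chosen introns and were not tested.

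A few members with large differences, chosen after their values were seen, show the pattern. Counts in the first intron of Parvb, a focal adhesion protein, were 94 and 87 in RBM45 KO clone 1, 0 in both libraries of clone 2, and 1, 0, 0 and 0 in KO rescue, while every WT, control and METTL3 KO library had 87 to 326. Nr1h4, the bile acid receptor, had 7 and 19 counts in clone 1, 1 and 0 in clone 2, and at most 1 in KO rescue. Pkp1, a desmosome protein, had 7 and 26 counts in clone 1, 0 and 1 in clone 2, and 2 or 3 in KO rescue. All 3 genes thus had counts in 1 KO clone and almost none in the other or in the rescue clones.

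Another 3 members went the opposite way, and their high KO rescue counts entered the mean that made them members. Zfp712, a zinc finger gene, had 1 and 2 counts in clone 1, 29 and 46 in clone 2, and 71 to 100 in KO rescue. Hs3st5, a heparan sulfate sulfotransferase, had none in clone 1, 37 and 49 in clone 2, and 71 to 107 in KO rescue. Hs3st5 was also called higher in the second control clone than in the first (edgeR). Alkal1, a ligand of the ALK receptor, had 29 and 46 in clone 1, 482 and 615 in clone 2, and 781 to 1682 in KO rescue. Its log2 difference between the KO clones was 3.77 (SE 0.28, adjusted p = 1.79e-14, edgeR quasi-likelihood test). Any mean over the RBM45 KO clones therefore joins unlike lines in these members, and KO rescue against RBM45 KO sets 1 unlike and 1 like clone against the rescue clones.

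**Figure D1:**
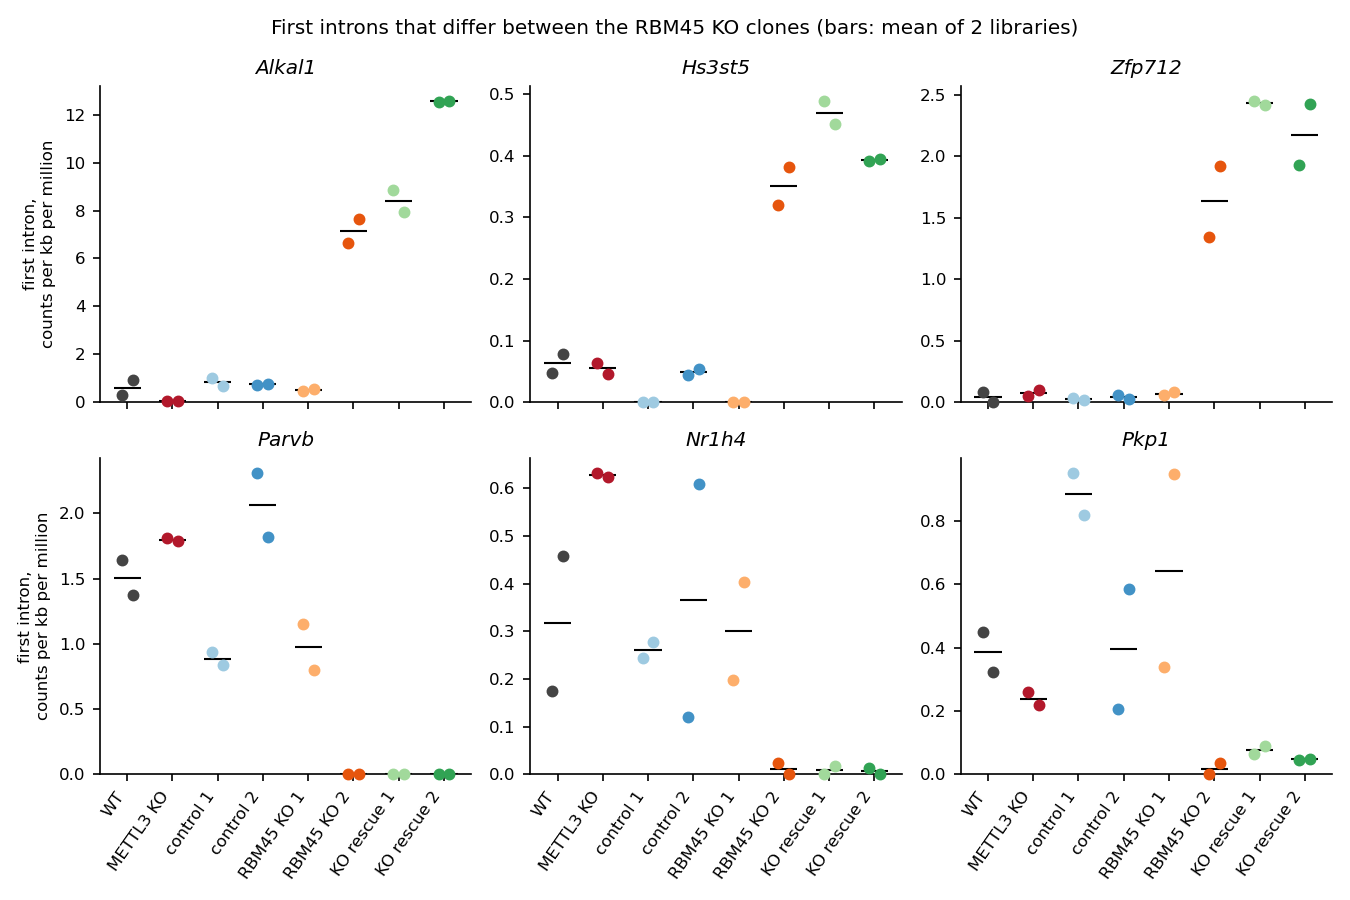
First-intron density (vertical axis, counts per kb per 1000000) of 6 members in each library, by group; points are libraries and bars the mean of 2. In Alkal1, Hs3st5 and Zfp712 RBM45 KO clone 2 and the KO rescue clones are high, and in Parvb, Nr1h4 and Pkp1 the same groups are at or near 0. Hs3st5 is also higher in the second control clone than in the first.

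The first introns were not the densest introns of their genes in general. Density is given as counts per kb per 1000000 counts of the TMM-scaled intron table. The median density was 0.971 in the first intron, 0.856 in the last intron and 1.01 over all other introns of the gene. The first intron was denser than the last in 2112 members (58.9%) and denser than the other introns in 1713 (47.8%). Where the last intron was also of middle length, the first was denser in 1253 of 2061 (60.8%). Because members needed 10 counts in the first intron and nothing in the last, the choice of members favours the first intron, and no test was made of these shares.

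Along the gene, the median density was highest in the first intron, but only while the other introns were taken without a count limit. Among introns of middle length in the members' genes, the median density was 0.971 for the first, 0.780 for the second (2418 introns), 0.805 for the third, 0.801 for the fourth, 0.792 for the fifth and 0.768 for the last. All first introns passed 10 counts by the rule, against 43.0% of those at the fourth place and 35.3% of last introns. Among introns with at least 10 counts at every place the order turned, with 0.971 in the first, 1.12 in the second, 1.18 in the third and 1.57 in the last. That order is shaped by the limit too. Among all introns of middle length, the median was 10490 bp for the first, 3622.5 bp for the second and 2236 bp for the last. A fixed minimum of counts asks for a higher density in a shorter intron, so neither order is a finding about place in the gene. The first-intron medians were close in all genotypes, at 0.940 for RBM45 KO, 0.961 for both the controls and KO rescue, 0.968 for WT and 0.973 for METTL3 KO.

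Shorter members were denser. The 850 members under 5000 bp had a median of 1.82 in the first and 1.25 in the last intron, with the first denser in 69.6%. In the 879 members of 5000 to under 10000 bp the medians were 0.969 and 0.916, and in the 914 of 10000 to under 20000 bp they were 0.738 and 0.789. The 940 members of 20000 bp or more had 0.676 and 0.625. A fixed minimum of counts asks for a higher density in a short intron, which bears on the order of these classes.

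**Figure D2:**
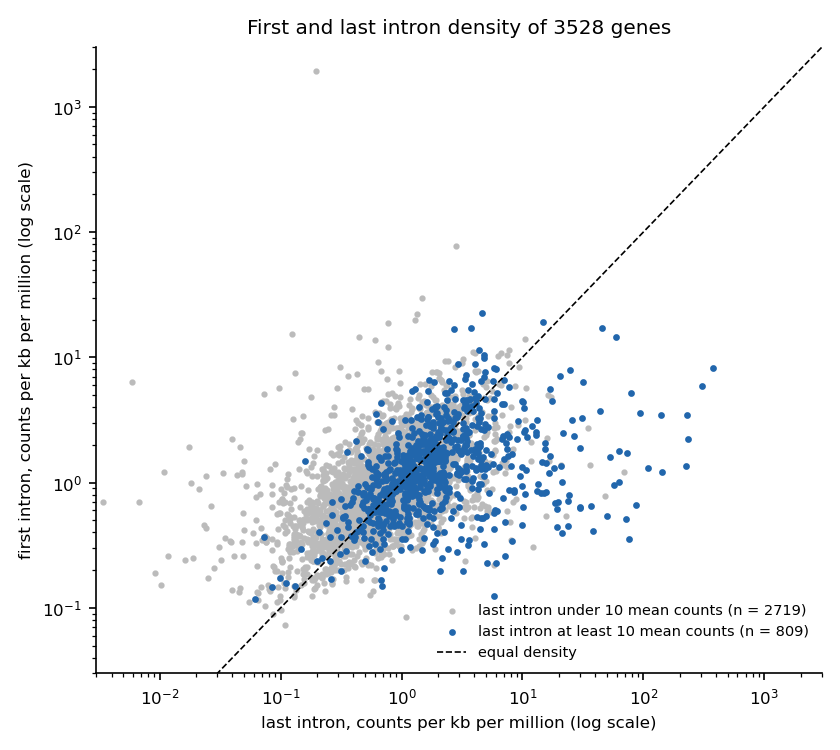
Mean density of the first intron (vertical) against the last intron (horizontal) of the same gene, both in counts per kb per 1000000 on log axes, for the 3528 members whose last intron had any count. Members with at least 10 mean counts in the last intron (809, blue) spread to the right, where short last introns hold many counts, and the members with fewer (grey) lie more often above the dashed line of equal density.

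What lies inside the members varied. Of the 3583, 2016 (56.3%) contained at least 1 exon bin of their own strand in the Ensembl-based exon table, covering a median of 0.54% of the intron. A gene on the other strand overlapped 726 (20.3%), and the kit did not mark strand, so reads of both genes cannot be told apart there. The last introns were short, with a median of 1258 bp (3 to 278163), and 1501 of them were shorter than any member may be. Rows of a few bp may be parts of an intron, which was not checked. Only 809 members had a last intron with a mean of at least 10 counts, and the test of first over last intron covers these. Across the members the median coefficient of variation over the 16 libraries was 28.4%.

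Sspn and Il31ra outweighed all other members by counts. Sspn, a muscle membrane protein gene, had a mean of 13372 counts in a first intron of 2362 bp (1941 counts per kb per 1000000), while its last intron of 5448 bp had 1 to 8 counts per library. Il31ra, a cytokine receptor subunit, had a mean of 4475 counts in its first intron and none in its last. Among last introns, that of Peak1 led with a mean of 13156.5 counts (19490 bp) and that of Taf1d followed with 1685. Next to these, the median member had 28.8 counts.

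Counts of the Sspn first intron (chr6:145932010-145934371, plus strand) were 9229 and 10514 for WT, 7922, 9915, 7353 and 9312 for KO rescue, 15072, 17467, 11864 and 12996 for RBM45 KO, 25576, 17117, 17665 and 25411 for the controls, and 6108 and 10437 for METTL3 KO. As a share of intron counts this was 0.22% to 0.31% for KO rescue and 0.30% and 0.31% for METTL3 KO, against 0.44% and 0.47% for WT, 0.41% to 0.56% for RBM45 KO and 0.40% to 0.66% for the controls. The last intron of Peak1 held 0.27% to 0.40% for KO rescue and 0.29% and 0.33% for METTL3 KO, against 0.44% and 0.46% for WT, 0.48% to 0.54% for RBM45 KO and 0.34% to 0.56% for the controls. METTL3 KO and KO rescue, which had the smallest shares of ribosomal repeats, were below the other groups in Sspn; in Peak1 KO rescue overlapped 1 control library. The part of the repeats in this was not tested.

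The pooled ratio of first over last introns moved with these few introns. Summed over all members, the log2 ratio of first to last intron density was -0.57 in both WT libraries, -0.66 to -0.54 for RBM45 KO and -0.65 to -0.38 for the controls. METTL3 KO (-0.31 and -0.24) and KO rescue (-0.37 to -0.25) were above every library of the other groups, though 1 control library came close to KO rescue. Without the genes of the 2 leading first and 2 leading last introns, the values were -0.16 to -0.01 for KO rescue, -0.07 and -0.05 for METTL3 KO, -0.15 and -0.23 for WT, -0.28 to -0.17 for RBM45 KO and -0.22 to -0.15 for the controls, so that KO rescue overlapped WT and the controls. The median log2 ratio over the 809 members, which gives each gene the same weight, was -0.30 to -0.21 for KO rescue, -0.34 and -0.27 for METTL3 KO, -0.22 and -0.42 for WT, -0.50 to -0.25 for RBM45 KO and -0.37 to -0.26 for the controls. By the median METTL3 KO, KO rescue, RBM45 KO and the controls all lay within or across the span of the WT libraries.

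**Figure D3:**
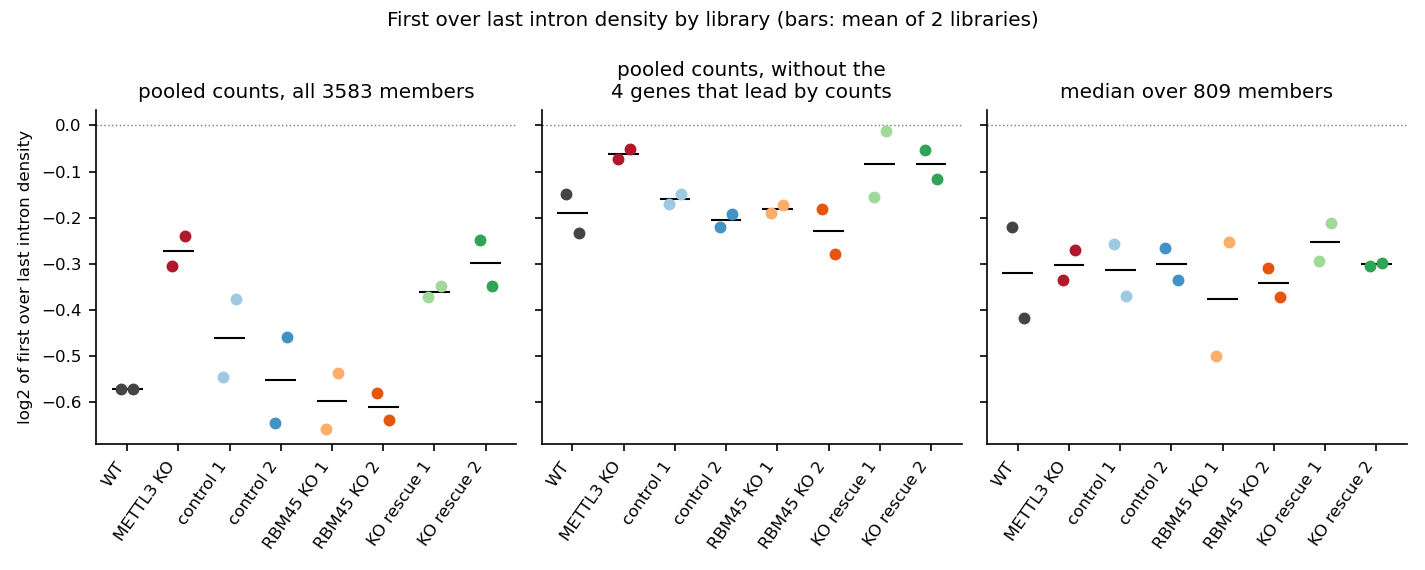
Log2 of first over last intron density (vertical axis) by library and group for pooled counts (left), pooled counts without the 4 genes that lead by counts (middle) and the median over 809 members (right); bars are means of 2 libraries. METTL3 KO (-0.31, -0.24) and KO rescue (-0.37 to -0.25) stand above the rest on the left, and the groups overlap on the right.

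Few members differed in the balance of first and last intron when RBM45 KO was set against the controls. In RBM45 KO against the controls, 1 of the 809 members passed the test, against a background of 0.101% of all 988 genes tested (edgeR quasi-likelihood test on the interaction of intron and group, 2 clones a side, Benjamini-Hochberg adjustment over all 988), with 58 members under an unadjusted p of 0.05. The median log2 change was -0.03 over the members and -0.01 over all genes tested. The member was Ndufab1 (chr7:122096732-122101654, minus strand), the mitochondrial acyl carrier protein. Its log2 ratio was -0.76, -1.74, -2.63 and -0.37 for the controls, -2.15, -3.23, -3.25 and -2.19 for RBM45 KO, and -2.22 to -1.76 with the rescue copy. Libraries of control and knockout clones overlapped, with 1 control library at -2.63, and the ratio fell by 1.34 on the log2 scale (SE 0.30, adjusted p = 0.037). An RNA on the other strand, Gm44986, covers 44.3% of this first intron. With DESeq2 the change was -1.35 on the log2 scale and did not pass, and leaving out any clone but control clone 2 also ended the call, at -1.42 to -1.29. It was not tested without genes overlapped on the other strand or with a minimum of 30 counts, since both leave it out.

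With all other introns of the gene in place of the last one, 3307 members could be tested. In RBM45 KO against the controls 0 passed (edgeR, background 0.0248%; 246 under an unadjusted p of 0.05; smallest adjusted p = 0.0897, for Wwp2, a ubiquitin ligase). Counts of the first introns themselves gave 0 of 3583 (edgeR, background 0.00384% of 26033 introns; 191 under an unadjusted p of 0.05; 1 with DESeq2). The smallest p belonged to Macroh2a2, a histone variant, with 0, 1, 0 and 0 counts for the controls, 7, 12, 14 and 13 for RBM45 KO and 13 to 32 with the rescue copy (edgeR adjusted p = 0.119). WT had 3 and 3 counts and METTL3 KO 14 and 21, so the controls alone were near 0. Lgr6, a receptor of R-spondins, had 59 to 181 counts for the controls, 6 and 23 for WT, 1 to 10 for RBM45 KO and 1 to 4 with the rescue copy (edgeR adjusted p = 0.615). By edgeR 0 members of the 10 gene lists passed in this comparison.

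KO rescue was compared with RBM45 KO and with the controls. Against RBM45 KO, 9 of 809 passed the first over last intron test by edgeR (1.32% of all genes tested), 7 higher (1.01%) and 2 lower (0.304%). Against the controls 6 passed (1.01%), 4 higher (0.607%) and 2 lower (0.405%). The members' shares were 1.11% and 0.74%, near these backgrounds. The median log2 change over the members was 0.10 and 0.05, beside 0.09 and 0.06 over all genes tested. Leaving out either KO rescue clone, or RBM45 KO clone 1, left 0 calls against RBM45 KO, and leaving out either KO rescue clone left 0 against the controls. These comparisons share the KO rescue clones.

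Peak1 (chr9:56374440-56417940, minus strand), a pseudokinase of the actin cytoskeleton, led. Its log2 ratio was -7.83, -7.36, -7.00 and -6.85 for RBM45 KO, -5.26, -6.37, -5.20 and -5.57 for KO rescue, -7.32, -5.82, -8.12 and -7.14 for the controls, -6.97 and -6.89 for WT, and -5.89 and -5.57 for METTL3 KO. All KO rescue libraries were above all RBM45 KO libraries, and 1 control overlapped them. The ratio was 1.67 higher on the log2 scale than in RBM45 KO (SE 0.31, adjusted p = 0.00112, edgeR) and 1.43 higher than in the controls (SE 0.31, adjusted p = 0.00354). The call against the controls was lost without control clone 2 (0.95, edgeR adjusted p = 0.165), while the difference was 1.93 without control clone 1. Both calls were lost without genes overlapped on the other strand, with edgeR adjusted p = 0.0636 and 0.125. The first intron of Peak1 had 129 to 619 counts and the last 6426 to 21443, in an intron that also holds the predicted small RNA Gm24270, so the ratio rests on the last intron named above.

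Map4 (chr9:109931941-109978849, plus strand), a microtubule-associated protein, had log2 ratios of -7.95, -7.39, -6.85 and -6.97 in RBM45 KO and -6.27, -6.51, -6.08 and -6.64 in KO rescue. The groups did not overlap, and the difference was 0.90 (SE 0.22, adjusted p = 0.0205, edgeR). Without RBM45 KO clone 1 it was 0.53 and against all other introns of the gene 0.36 (edgeR adjusted p = 0.247), and neither passed. Its last intron is 106 bp long with 27 to 66 counts, beside 46909 bp and 72 to 331 counts in the first. Nde1 (chr16:14163369-14169451, plus strand), a dynein regulator, had -6.49, -6.48, -6.23 and -6.80 in RBM45 KO and -5.75, -5.32, -4.93 and -5.21 in KO rescue, a difference of 1.24 (SE 0.28, adjusted p = 0.0122) that was 0.90 against all other introns and did not pass (edgeR adjusted p = 0.102).

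Klc1, a kinesin light chain, had -4.19 to -3.50 in RBM45 KO and -3.20 to -2.63 in KO rescue, 0.91 higher (SE 0.24, adjusted p = 0.0436, edgeR). Its last intron lies wholly under Xrcc3 on the other strand, and against all other introns the difference was 0.32 (edgeR adjusted p = 0.471). Slc11a2, a metal ion transporter, rose by 1.26 (SE 0.34, adjusted p = 0.0451) and Ankrd13b, an ankyrin repeat protein, by 1.53 (SE 0.40, adjusted p = 0.0410). Ankrd13b has a last intron of 135 bp with 5 to 24 counts. Neither passed against all other introns, at 1.10 for Slc11a2 (edgeR adjusted p = 0.105) and 1.07 for Ankrd13b (0.153).

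Synj2 (chr17:5941578-5975794, plus strand), a phosphoinositide phosphatase, had log2 ratios of -3.36, -3.27, -3.98 and -3.53 for the controls, -3.68, -3.37, -3.59 and -2.88 for RBM45 KO, and -2.92, -2.66, -2.23 and -2.73 with the rescue copy. KO rescue was above all controls (0.85, SE 0.19, adjusted p = 0.00442, edgeR) and overlapped RBM45 KO (0.72, SE 0.20, adjusted p = 0.0451). The call against RBM45 KO was lost on leaving out any 1 of the RBM45 KO or KO rescue clones. Its first intron alone stood at 0.654 to 0.795 counts per kb per 1000000 in the controls and 0.802 to 1.03 in KO rescue. The same direction held against all other introns of the gene (0.61 against the controls, SE 0.15, edgeR adjusted p = 0.0473). Serac1, on the other strand, overlaps 26.8% of the Synj2 last intron. Synj2 was therefore not tested without genes overlapped on the other strand. Synj2 and Peak1 passed against the controls with both denominators, but without control clone 2 the Synj2 difference was 0.67 (edgeR adjusted p = 0.127), so neither call held without that clone.

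Rassf5 (chr1:131212379-131244688, minus strand), a Ras effector, had -3.99, -3.98, -4.77 and -3.47 in the controls and -2.83, -2.07, -1.96 and -2.29 in KO rescue, a difference of 1.71 (SE 0.32, adjusted p = 0.0021, edgeR). RBM45 KO clone 1 (-4.53 and -4.11) stood with the controls and clone 2 (-1.92 and -3.09) with KO rescue. Its last intron lies wholly under Eif2d on the other strand and had 6 to 44 counts, and against all other introns the difference was 0.60 (edgeR adjusted p = 0.255). The KO clones thus stood on either side in this ratio.

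The lower members were Pcdh7, a protocadherin, and Anxa3, an annexin, beside 1 predicted gene in each comparison. Pcdh7 (chr5:57722279-57728113, plus strand) had 2.96, 2.79, 2.75 and 2.95 for the controls, 2.62, 2.18, 2.24 and 2.55 for RBM45 KO and 1.85, 2.11, 1.70 and 2.05 with the rescue copy. The 3 genotypes did not overlap, and KO rescue fell by 0.97 against the controls (SE 0.22, adjusted p = 0.00662, edgeR). Its first intron is 5835 bp and its last 186712 bp, and the last intron had 40 to 252 counts in the controls and 263 to 623 in KO rescue. The annotated gene Gm42635, on the same strand, covers 44.1% of the first intron, so reads there may come from that transcript. Pcdh7 had -0.64 against all other introns (edgeR adjusted p = 0.111), and without control clone 1 it no longer passed (-0.99, edgeR adjusted p = 0.113). Anxa3 fell by 0.85 against RBM45 KO (SE 0.23, adjusted p = 0.0451), with -0.69 against all other introns (edgeR adjusted p = 0.0986). Ap3b1, a subunit of a vesicle coat adaptor, was higher against the controls (0.92, SE 0.24, adjusted p = 0.0406). Ap3b1 had 0.17 against all other introns (edgeR adjusted p = 0.759), and the call was lost without control clone 1 (edgeR adjusted p = 0.0805) or control clone 2 (0.127).

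**Figure D4:**
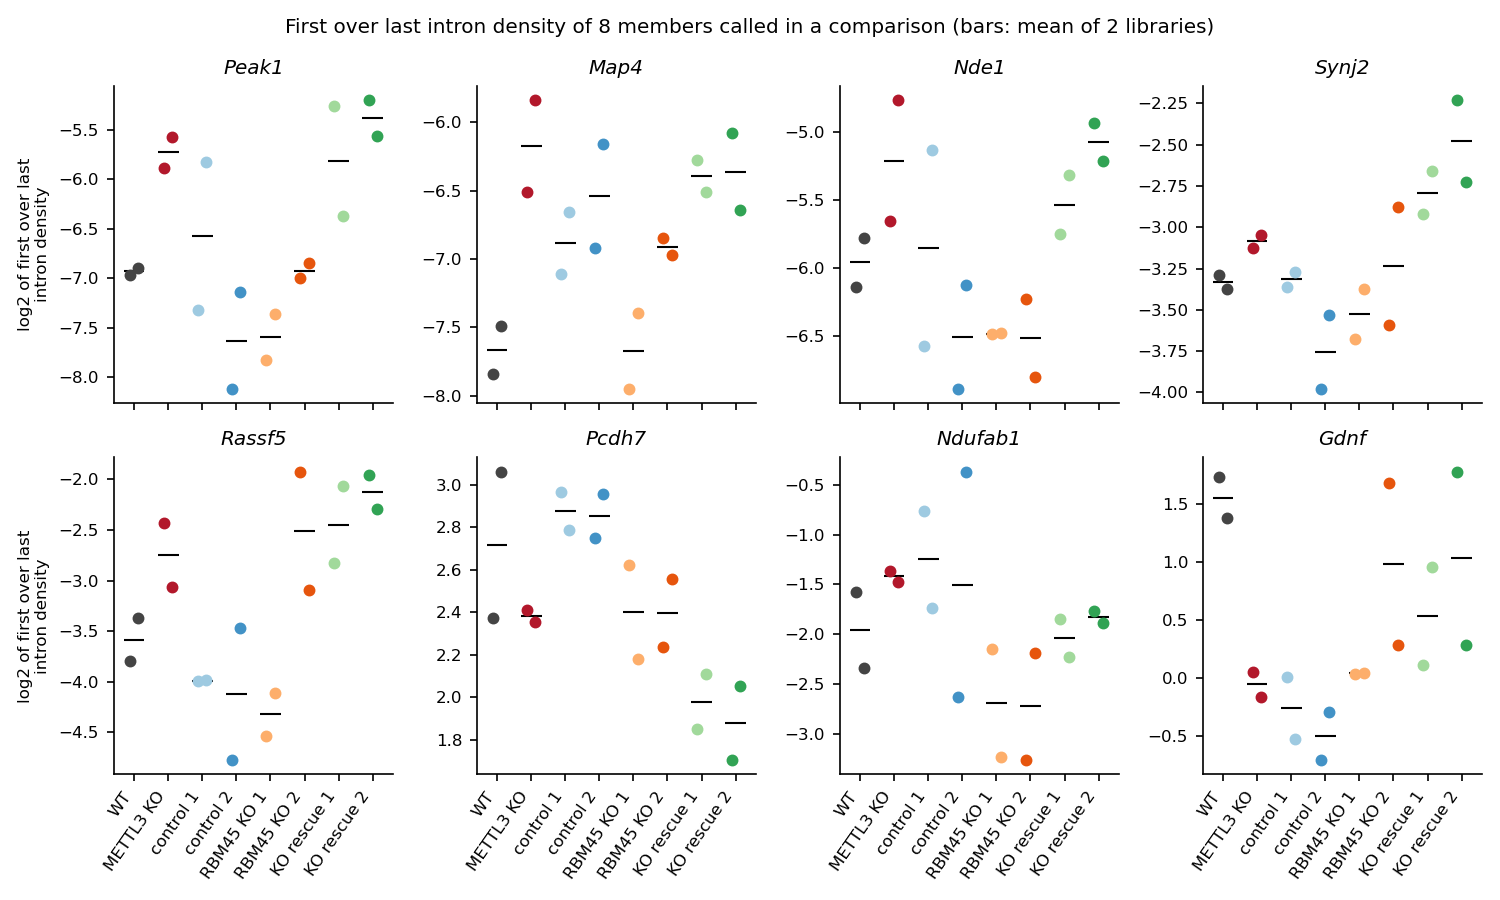
Log2 of first over last intron density (vertical axis, a scale of its own in each panel) of 8 members that passed the test in at least 1 comparison, by library and group; bars are means of 2 libraries. KO rescue is above RBM45 KO in Peak1, Map4 and Nde1 and below the controls in Pcdh7, and the controls lie below WT in Gdnf.

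Against all other introns, 18 of 3307 members passed in KO rescue over RBM45 KO (background 0.869%), 11 higher (0.497%) and 7 lower (0.372%), and 21 in KO rescue over the controls (background 1.04%), 15 higher (0.794%) and 6 lower (0.248%). The examples given here were chosen after their values were seen. Cd44 (chr2:102865447-102901267, minus strand), the hyaluronan receptor, had log2 ratios of -3.34, -3.61, -2.74 and -2.92 in RBM45 KO, -1.74, -2.54, -1.63 and -1.78 in KO rescue, and -2.76 to -2.14 in the controls. It was 1.24 higher in KO rescue than in RBM45 KO (SE 0.18, adjusted p = 0.000488, edgeR), and the controls overlapped both. Its first-intron density was 1.88 and 1.98 in RBM45 KO clone 1, 3.88 and 3.61 in clone 2 and 2.92 to 3.78 in KO rescue. Srrm2, a scaffold protein of nuclear speckles, had 1.43, 1.03, 1.23 and 1.21 in RBM45 KO, 0.52, 0.18, 0.17 and 0.86 in KO rescue and 0.50 to 1.25 in the controls, and fell by 0.79 (SE 0.16, adjusted p = 0.0149).

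Cdk8, a Mediator kinase, passed with 1.46 (SE 0.27, adjusted p = 0.00683, edgeR), with 43 to 221 counts in the first intron against 60682 to 208561 over its other introns. Camk1d, a calmodulin-dependent kinase, passed with 1.28 (SE 0.27, adjusted p = 0.0198) against 7440 to 28542 counts in other introns. The lower call of Sspn, -1.50 on the log2 scale (SE 0.32, adjusted p = 0.0198), rests on its leading first intron. In Peak1, Cdk8 and Sspn the introns with the most counts had fewer counts in every KO rescue library than in every RBM45 KO library, beside the smaller share of ribosomal repeats. The part of that share in these calls was not tested.

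First-intron counts gave 0 calls in KO rescue against RBM45 KO (edgeR, background 0 of 26033; 208 members under an unadjusted p of 0.05; 3 with DESeq2). They also gave 0 in KO rescue against the controls (background 0; 497 under an unadjusted p of 0.05; smallest adjusted p = 0.0505; 26 with DESeq2). That 0 depends on the setting: it was 148 without a filter on low counts, 237 with the replicate number as a block, 39 without control clone 1 and 41 without either RBM45 KO clone. Against RBM45 KO it was 27 without a filter, 6 with the block and 8 without RBM45 KO clone 2. With the block, single libraries took the place of clones as units, so its counts do not show the part of the block alone. The KO rescue clones differed from each other in 14 members (background 0.607%), 5 higher (0.246%) and 9 lower (0.361%) in the second. The 2 control clones differed in 218 members (background 6.46%), 131 higher (3.71%) and 87 lower (2.75%) in the second. Of the 126 members that differed between knockout clones (background 4.16%), 62 were higher in clone 2 and 64 lower. The clone pairs take their spread from replicate libraries and the genotype comparisons from clones, so these counts are not set against each other. The ratio test called 1 member in the control pair, 1 in the knockout pair (0.101% of all genes in each) and 0 in the rescue pair (edgeR, background 0; 20 under an unadjusted p of 0.05; 0 with DESeq2). Against all other introns, 4 members passed in the knockout pair (background 0.199%), 2 higher (0.124%) and 2 lower (0.0745%), 5 in the control pair (0.298%) and 1 in the rescue pair (0.0248%).

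METTL3 KO differed from WT in the level of 239 first introns, and 1 member passed in the balance with the last intron. First-intron counts passed in 239 of 3583 members, 111 higher (background 2.62%) and 128 lower (3.66%), which is 6.67% in all beside 6.28% of all introns (edgeR, 16 libraries in 8 groups). The ratio to the last intron passed in 1 of 809 (background 0.101%; 87 under an unadjusted p of 0.05), with a median log2 change of 0.09 over the members and 0.07 over all genes. That test called 5 members with a minimum of 30 counts. On simulated counts it recovered 3.0% of 2-fold changes, and the test of intron counts recovered 3.5%. The simulated spread was set in advance and not fitted to these libraries. Changes of that size may go uncalled in either test, and the simulation does not set the 2 tests apart. By length, 53 of 850 members under 5000 bp were called (6.24%), 36 of 879 of 5000 to under 10000 bp (4.10%), 50 of 914 of 10000 to under 20000 bp (5.47%) and 100 of 940 of 20000 bp or more (10.6%). At like density a longer intron holds more counts, which bears on how readily it is called. The share called by length over all introns was not taken. Leaving out 1 library changed the 239 calls to 63 without the second METTL3 KO library, 109 without the first, 86 without the first WT library and at most 211. Summed neuron markers were 51.5 CPM in WT and 110.1 in METTL3 KO, with 112.7 in the controls. Neural progenitor markers, 4 of 5 of which averaged at least 1 CPM, summed to 291.6 CPM in WT and 220.0 in METTL3 KO, astrocyte markers to 89.7 and 54.5, and mesenchymal markers to 1339 and 1614. The part of these shifts in the first-intron changes was not tested.

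Exons and other introns of the called members mostly had the sign of the first intron. Of the 208 called members with an exon value, 190 had exons of the same sign (91.3%), beside 1874 of 2969 members not called (63.1%). Of 214 with counts in other introns, 208 had the same sign there (97.2%), beside 2083 of 3092 not called (67.4%). The median log2 change of the first intron was 1.08 in the higher members, with 0.95 in the exons and 0.69 in the other introns, and -1.34 in the lower members, with -0.43 in the exons and -0.83 in the other introns. Of the 55 called members whose last intron was tested, 51 had the same sign there, and 11 last introns passed as well. All these values share the same libraries, called members have larger changes by choice, and no test was made of these shares. Exon values were scaled without TMM, so exon and intron changes are not on the same scale.

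**Figure D5:**
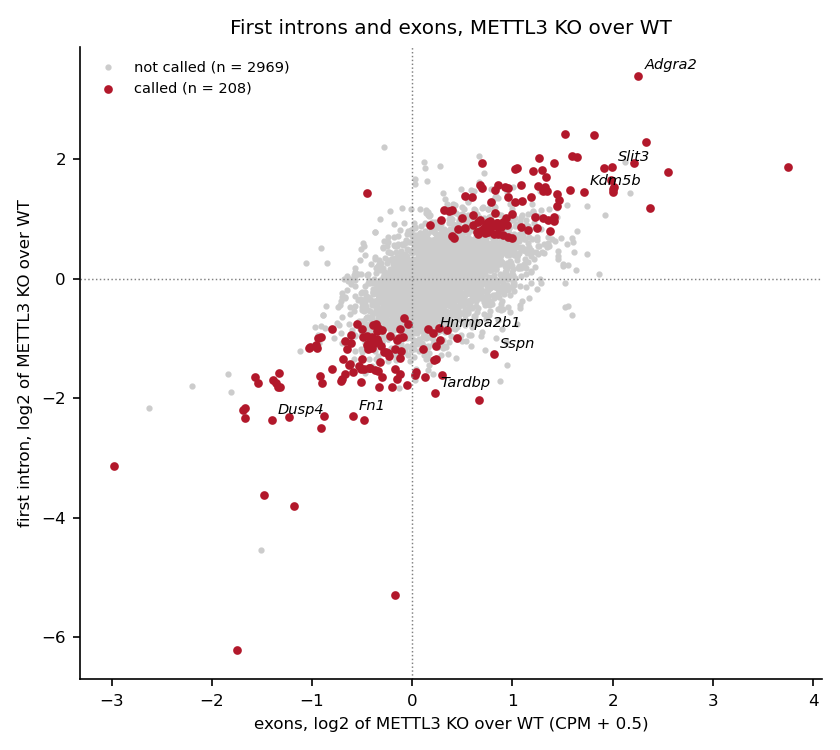
Log2 change of the first intron (vertical) against that of the exons of the same gene (horizontal), METTL3 KO over WT, for the members with an exon value; red points are the 208 called first introns. Most red points lie in the upper right or lower left, and Tardbp, Hnrnpa2b1 and Sspn lie in the lower right, with a lower first intron and higher exons.

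Adgra2 and Ephx1 were among the largest rises. Adgra2 (chr8:27086212-27098785, plus strand), an adhesion receptor that acts in WNT signalling, had 2 and 3 counts in WT and 29 and 80 in METTL3 KO, or 0.117 and 0.108 against 0.981 and 1.36 counts per kb per 1000000. The difference was 3.40 on the log2 scale (SE 0.51, adjusted p = 1.02e-05, edgeR), but the controls also stood above WT at 0.397 to 0.688. Ephx1 (chr1:181001987-181017426, minus strand), an epoxide hydrolase, had densities of 0.381 and 0.382 in WT, 2.23 and 1.76 in METTL3 KO and 0.206 to 0.527 in the controls, and rose by 2.36 (SE 0.35, adjusted p = 9.96e-06). In Ephx1 the METTL3 KO libraries were above all WT and control libraries.

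Fbln5, an elastic fibre protein, had 0.534 and 0.439 in WT, 2.57 and 1.61 in METTL3 KO, and 2.12, 1.99, 0.246 and 0.121 in the controls, so 1 control clone stood with METTL3 KO and the other below WT. It rose by 2.04 (SE 0.50, adjusted p = 0.00779, edgeR), with its exons 1.64 higher. Trip11, a Golgi protein, rose by 2.42 (SE 0.66, adjusted p = 0.0166) and Fam20a, of a family of secretory pathway kinases, by 2.40 (SE 0.77, adjusted p = 0.0476). For Fam20a the controls were 2.79 above WT (SE 0.69, adjusted p = 0.0144).

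The largest falls came from introns with almost no counts left. Col4a4, a basement membrane collagen chain, had 3 and 7 counts in WT and 0 in both METTL3 KO libraries (adjusted p = 0.00348, edgeR). Ifi211, an interferon-inducible gene, had 10 and 15 counts in WT and 0 and 1 in METTL3 KO (adjusted p = 5.02e-06), with 6 to 21 in the controls. The protein-coding gene Mndal covers 100% of that intron on the same strand, so the counts cannot be given to Ifi211 alone. Nup210, a nuclear pore protein, had 10 and 10 in WT, 1 and 2 in METTL3 KO (adjusted p = 0.00039) and 10 to 21 in the controls. Alkal1 had 11 and 58 in WT and 4 and 5 in METTL3 KO, so the WT libraries themselves lay far apart (log2 change -3.81, SE 0.48, adjusted p = 3.19e-07).

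Some regulators of the MAP kinase pathway were lower in the METTL3 KO line. Of 17 members of the MAP kinase and growth factor list, 0 were higher and 4 lower by edgeR, beside 2.62% and 3.66% of all introns, and 0 of 16 passed against all other introns of the gene. The list had a median log2 change of -0.06, beside 0.02 over all members. Dusp4 and Dusp5 encode phosphatases that switch off MAP kinases, and Fosl1 and Myc are transcription factors induced by the pathway. Dusp4 (chr8:34808174-34816446, plus strand) had 5.78 and 2.30 counts per kb per 1000000 in WT, 0.411 and 0.933 in METTL3 KO and 1.34 to 2.46 in the controls. It fell by 2.36 (SE 0.33, adjusted p = 2.69e-06), and the controls also fell by 0.99 against WT (SE 0.25, adjusted p = 0.0173). Dusp5 had 6.60 and 3.19 in WT, 0.721 and 1.19 in METTL3 KO and 2.45 to 4.19 in the controls, and fell by 2.17 (SE 0.37, adjusted p = 0.000106). Fosl1 fell by 1.62 (SE 0.44, adjusted p = 0.0169) and Myc, named after its values were seen, by 1.11 (adjusted p = 0.0241), with exons 0.92 and 0.45 lower.

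Among RNA-binding and splicing regulators, Hnrnpa2b1, Srrm2 and Tardbp had lower first introns without lower exons. Of 27 members 0 were higher and 4 lower (edgeR), beside 2.62% and 3.66% of all introns. The median was -0.36, and 6 of 27 had a positive value. Hnrnpa2b1 (chr6:51467296-51469670, minus strand), a nuclear ribonucleoprotein that binds RNA and is counted among m6A readers, had first-intron densities of 24.2 and 17.8 in WT, 10.0 and 11.7 in METTL3 KO and 17.7 to 19.4 in the controls. METTL3 KO was below all WT and control libraries, and KO rescue stood at 12.5 to 15.2. The intron fell by 0.91 (SE 0.22, adjusted p = 0.0076), while its exons were 0.21 higher. All 2375 bp of this intron lie under exon bins of its own strand, so its reads may come from exons of other transcripts; its splice sites are among those printed above.

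Srrm2 (chr17:23803399-23808065, plus strand) had 11.04 and 9.04 in WT, 4.83 and 6.06 in METTL3 KO and 9.03 to 9.60 in the controls, and fell by 0.84 (SE 0.23, adjusted p = 0.0176, edgeR), with exons 0.16 higher. Tardbp (chr4:148625377-148626680, minus strand), which encodes the RNA-binding protein TDP-43, had 5.65 and 4.52 in WT, 0.652 and 1.64 in METTL3 KO and 3.26 to 5.06 in the controls, and fell by 1.91 (SE 0.55, adjusted p = 0.0240), with exons 0.22 higher. In Hnrnpa2b1, Srrm2 and Tardbp the first intron passed and the exons were not lower. Their other introns were lower too, by log2 changes of -0.52, -0.31 and -0.68. The last introns of Hnrnpa2b1 (-0.22) and Tardbp (-0.52) were lower but did not pass. A test of the first intron against all other introns called none of the 27, so the fall is not shown to be particular to the first intron.

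Over all called members, 18 of 208 had exons of the other sign, and 17 of these had a lower first intron and higher exons. Klf6, a zinc finger transcription factor, and Lhx2, a homeobox transcription factor, were among them. The Klf6 intron fell by 1.57 (adjusted p = 0.000436, edgeR) with exons 0.04 higher, and the Lhx2 intron fell by 1.02 (adjusted p = 0.0067) with exons 0.28 higher; both were named after their values were seen. Exon changes carry no test here, and exon CPM was taken over summed exon counts without TMM, unlike the intron values. A shift between these scales would move all exon changes alike, and the exon rises above are small. METTL3 KO also had a smaller share of ribosomal repeats than WT, and its part in the exon signs was not tested.

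Members of the guidance list and of the matrix list were called in both directions. Slit3 (chr11:35121712-35171572, plus strand), a secreted axon guidance ligand, had 0.295 and 0.136 in WT and 0.827 and 0.666 in METTL3 KO and rose by 1.87 (SE 0.29, adjusted p = 2.03e-05, edgeR), with exons 1.99 higher, while Itga5, the fibronectin receptor subunit, fell by 1.17 (SE 0.28, adjusted p = 0.00628). These were the 2 calls among 15 members of the guidance and adhesion list, whose median was 0.21. Over all introns 2.62% were higher and 3.66% lower, a background for the calls of the lists that follow too. Among 12 matrix members (median 0.40), Col4a1 rose by 0.71 (SE 0.22, adjusted p = 0.0441), and Fn1 (fibronectin) fell by 2.30 (SE 0.42, adjusted p = 0.000324) and Cd44 by 0.66 (SE 0.21, adjusted p = 0.0466). The first intron of Fn1 had 14.3 and 10.4 in WT, 2.52 and 2.36 in METTL3 KO and 3.64 to 11.6 in the controls.

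Of 22 chromatin regulators (median 0.08) 2 were higher and 0 lower by edgeR: Kdm5b, a histone demethylase, rose by 1.46 (SE 0.34, adjusted p = 0.00464), with all METTL3 KO libraries above WT and the controls, and Chd9, a chromatin remodeller, by 1.84 (SE 0.53, adjusted p = 0.0261). Of 16 cytoskeleton and neuronal maturity genes (median -0.05), 1 passed. It was Map2, a dendritic microtubule protein, with 0.292 and 0.489 in WT, 1.11 and 1.05 in METTL3 KO and 1.06 to 1.59 in the controls. It rose by 1.38 (SE 0.32, adjusted p = 0.00487), and the controls were 1.64 above WT (SE 0.29, adjusted p = 0.000234). METTL3 KO and the controls share the WT libraries in these comparisons, so the WT value enters both.

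In the remaining lists few members passed. Of 14 cholesterol and lipid synthesis genes, 1 was lower and 3 had a positive value (median -0.49): Insig1, which holds back cholesterol synthesis, changed by -1.50 on the log2 scale (SE 0.35, adjusted p = 0.00495, edgeR), with exons 0.43 lower. Of 10 m6A writers, erasers and readers 1 was lower, Hnrnpa2b1 (median 0.08). Of 19 elongation, U1 and early termination factors (median -0.12) and of 10 replication genes (median -0.25), 0 passed by edgeR in first-intron counts. Lists of members are read beside a median of 0.02 over all 3583 members and 0.00 over all introns. Their calls are read beside 2.62% of all introns higher and 3.66% lower.

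The 1 member whose balance passed in METTL3 KO was Map4. Its log2 ratio of first over last intron was -7.84 and -7.49 in WT, -6.51 and -5.84 in METTL3 KO and -7.11 to -6.15 in the controls, which overlapped METTL3 KO. The difference was 1.53 (SE 0.34, adjusted p = 0.0177, edgeR). The first intron stood at 1.13 and 1.01 in WT and 1.21 and 1.25 in METTL3 KO, and the 106 bp last intron had 37 and 42 counts against 27 and 35. Against all other introns the difference was 0.46 (edgeR adjusted p = 0.398). With last introns of middle length only, which leaves Map4 untested, 0 members passed.

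Against all other introns, 6 members passed in METTL3 KO over WT (background 0.348%), 3 higher (0.223%) and 3 lower (0.124%); the 3 examples were chosen after their values were seen. Rab10, a small GTPase of membrane traffic, had log2 ratios of -0.69 and -0.31 in WT, 0.95 and 0.57 in METTL3 KO and -0.02 to 0.43 in the controls. The groups did not overlap, and the difference was 1.20 (SE 0.25, adjusted p = 0.00536, edgeR). Coro2b, an actin-binding coronin, was higher in METTL3 KO (adjusted p = 0.00335, edgeR), at -0.56 and -0.95 against -3.11 and -1.91 in WT, and its ratio was -3.92 and -3.61 in 1 control clone and -2.58 and -1.16 in the other, so it also differed between clones of 1 genotype. Tulp4, a gene of the tubby family, fell by 0.77 (SE 0.18, adjusted p = 0.0254).

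The controls differed from WT in 80 members by counts, 24 higher (background 0.745%) and 56 lower (1.48%), or 2.23%, beside 2.23% of all introns (edgeR). Against all other introns 5 passed (background 0.199%), 2 higher (0.0497%) and 3 lower (0.149%). The exons of 64 of 67 called members with an exon value had the same sign. The ratio to the last intron passed in 1 member (background 0.101%; 46 under an unadjusted p of 0.05), Gdnf, a neurotrophic factor. Its log2 ratio was 1.73 and 1.38 in WT and 0.01, -0.52, -0.70 and -0.29 in the controls, and it fell by 1.86 (SE 0.41, adjusted p = 0.0166). METTL3 KO, at 0.05 and -0.16, stood with the controls, while RBM45 KO and KO rescue ranged from 0.04 to 1.78. Counts in the first intron were few, at 4 to 36 per library.

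Promoters of called members were less rich in CpG than those of all members. In METTL3 KO over WT the share with an observed to expected CpG ratio of at least 0.6 was 75.6% of the 86 higher and 65.3% of the 101 lower members with a promoter, beside 83.1% of all members. TATAAA stood in 9.30% and 9.90%, beside 5.34%. The calls need both a change and enough counts, and no test was made of these shares.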

How the data were processed

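Deposited values were raw counts of fragments per gene, exon bin and intron; the file headers name featureCounts 1.6.3. The submitters' processing notes list mm10 and HISAT2 2.1.0. In the intron table, from a flattened RefSeq annotation, the authors required an overlap share of 0.1 and counted by strand, per the file headers, although the kit did not mark strand. Gene-table totals were 7193908 to 18751324 counts. All 16 columns were used; the control columns match no label by name and were taken as the controls because the others match, and clone numbers of controls and KO rescue are names only.

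Introns were ordered within each gene identifier by strand. Ratios used a pseudocount of 0.5 counts per intron, and exon changes 0.5 CPM. Exon CPM was taken over summed exon counts without TMM, while intron densities used TMM-scaled totals. The test of first against last intron was the interaction term of edgeR 4.0.16 (R 4.3.3) with TMM scaling over genes with at least 3 introns and a mean of at least 10 counts in both; counts were tested over 26033 introns. RBM45 comparisons used 6 clones with their 2 libraries added; METTL3 KO, controls over WT and clone pairs used 16 libraries and compare lines. DESeq2 1.42.0 was an alternative.

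Counts were simulated with a spread set in advance, not fitted to the libraries. For RBM45 KO against the controls, the ratio fit of 988 genes recovered 10.0% of 2-fold and 86.5% of 4-fold changes. For METTL3 KO against WT it recovered 3.0% and 65.0%. The test of intron counts recovered 5.0% and 87.5% for RBM45 KO against the controls, and 3.5% and 64.5% for METTL3 KO against WT. Replicate numbers did not pair the libraries: 2 of 28 pairs of groups correlated above 0.1. Symbols of members came from RefSeq transcripts, and promoters from RefSeq. Counts of members with a gene on the other strand or an exon bin used the deposited gene and exon coordinates. The overlapping genes named and the splice sites came from GENCODE release M21 on GRCm38. Python 3.11.15 was used with pandas 2.3.3 and scipy 1.17.1.

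The members, gene lists and tests were chosen with earlier results of these data known. Genes named are those of highest density or extreme ratio, those that pass a comparison with the smallest p or largest change, and up to 3 of smallest p per list; predicted genes and members on chromosome 18 were not named as results, and a gene named outside this rule is said to be so. The result of 1 gene is not reported here.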

Additional observations from a re-analysis of the deposited data

Results flagged for a closer look

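Clones of 1 genotype differed in members, by edgeR on replicate libraries: 126 first introns between the RBM45 KO clones, 218 between the control clones and 14 between the KO rescue clones. The shares over all introns were 4.16%, 6.46% and 0.607%. In the ratio of first over last intron, 1 predicted gene was lower in RBM45 KO clone 2 than in clone 1, at -3.44 on the log2 scale. Taf1d, a subunit of an RNA polymerase I factor, was 2.13 higher in the second control clone than in the first (SE 0.35, adjusted p = 3.58e-05, edgeR). Without the second library of control clone 2 the Taf1d difference was 1.48 and did not pass (edgeR adjusted p = 0.244), and the calls of that setting were 0 higher and 3 lower. Its last intron, which holds 3 small nucleolar RNAs, had 701 and 703 counts in the second control clone and 2595 and 2748 in the first, and its first intron 33 and 73 against 39 and 51. The spread in these tests is between libraries of a clone.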

How the results depend on the processing

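Settings were varied for named members called in the first over last intron test or in METTL3 KO over WT counts. None of these changed sign: in 413 comparisons with an alternative the call stayed and in 203 it no longer passed. Named calls made only against all other introns were not put through these settings. Nor were count calls of clone pairs or of controls over WT. Counts of called members moved as given below. The cause was not tested, except that some settings leave a called gene untested. Among these were Ndufab1 (minimum of 30, no gene on the other strand), Map4 (last introns of middle length) and Taf1d (no gene on the other strand). Gdnf and the predicted gene of the RBM45 KO clones were left out by a minimum of 30. Synj2, Klc1, Rassf5 and Slc11a2 were left out where no gene on the other strand was allowed. First over last intron, RBM45 KO over control (1): 0 with TMM of each intron set, DESeq2, a minimum of 30, other introns, no gene on the other strand or the replicate block, 2 without a filter or with last introns of middle length, and 0 to 3 leaving out a clone (3 without control clone 1, 2 without control clone 2 or RBM45 KO clone 1, 0 without any other). KO rescue over RBM45 KO (9): 3 with own TMM, 1 with DESeq2, 2 without a filter, 18 against other introns, 5 without other-strand genes, and 0 to 15 leaving out a clone (0 without either KO rescue clone or RBM45 KO clone 1, 5 without RBM45 KO clone 2, 15 without either control). KO rescue over control (6): 1 with DESeq2, 21 against other introns, 10 with the replicate block, 0 to 16 leaving out a clone (0 without either KO rescue clone, 16 without either RBM45 KO clone). METTL3 KO over WT (1): 2 with own TMM or no filter, 0 with DESeq2 or last introns of middle length, 5 with a minimum of 30, 6 against other introns, 0 to 2 leaving out a library (2 without the first METTL3 KO library, 0 without any other). Controls over WT (1): 0 with DESeq2, no filter or a minimum of 30, 5 against other introns, 0 to 1 leaving out a library (0 without either WT library or the second of control clone 1). Control clones (1): 5 against other introns, 0 without other-strand genes, 1 to 3 leaving out a library (3, all lower, without the second of control clone 2). RBM45 KO clones (1): 0 with a minimum of 30, 4 against other introns. KO rescue clones (0): 1 against other introns.

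First-intron counts, RBM45 KO over control (0): 1 with DESeq2, 24 without a filter, 2 with the replicate block, 0 to 8 leaving out a clone (8 without control clone 1, 5 without RBM45 KO clone 1). KO rescue over RBM45 KO (0): 3 with DESeq2, 27 without a filter, 6 with the block, 0 to 8 leaving out a clone (8 without RBM45 KO clone 2). KO rescue over control (0): 2 with DESeq2 size factors, 26 with DESeq2, 148 without a filter, 1 without other-strand genes, 237 with the block, 0 to 41 leaving out a clone (39 without control clone 1, 41 without either RBM45 KO clone). METTL3 KO over WT (239): 124 with DESeq2, 132 without a filter, 63 to 211 leaving out a library (63 and 109 without the second and first METTL3 KO library, 86 without the first WT library). The block joins libraries that share only a number, and its correlations ran from -0.0752 to 0.228 over 28 pairs of groups. In the comparisons of RBM45 KO, KO rescue and the controls it also took single libraries as units in place of clones. Its counts there mix both changes, and libraries of a clone are not independent of each other. Few simulated 2-fold changes were recovered at these depths and numbers of libraries, with a spread set in advance. The part of depth was not tested.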
